A study of Mus musculus with 4 samples.

Results

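The genes described here encode a receptor, a ligand, adaptor proteins and downstream enzymes that work next to Erbb2, the receptor tyrosine kinase transfected in this study. They are Egfr, Hbegf, Grb7, Shc1, Gab1, Pik3ca, Pik3r1, Nras, Map2k1 and Map2k2. These 10 genes were chosen by name and role, with earlier results of these data known, from the 9930 genes named on the array. All 10 had a value on each of the 4 arrays, as had 6327 genes in all, on which the tests were run.

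ERBB receptors sit in the cell membrane and pair up when a ligand binds. ERBB2 binds no known ligand of its own and signals as the partner of other receptors such as EGFR, or by pairing with itself when it is abundant. The phosphorylated receptor tails recruit adaptors, which pass the signal to RAS and the RAF-MEK-ERK kinases on one side and to phosphoinositide 3-kinase (PI3K) and AKT on the other. Much of this signalling runs through phosphorylation of proteins that are already present, which an expression array does not measure.

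NIH3T3 is an established line of mouse embryonic fibroblasts. On each 2-colour cDNA array, labelled cDNA of a transfected line with Erbb2 overexpression was hybridised together with that of untransfected NIH3T3 cells, whose Erbb2 expression the labels call normal. Cy5 marked the transfected line in the first 2 hybridisations (arrays 1 and 2), and the dyes were swapped for arrays 3 and 4. The labels give no growth condition, promoter or clone, and the design names the 4 arrays technical replicates, so there was 1 biological sample per line. Every SD, interval and p-value below therefore covers the spread between arrays and not between cultures. The intervals and limma p-values come from a fit with a dye term unless stated. They thus leave out the difference between the dye orientations, which the SDs include. No probe for Erbb2 itself was analysed here, so the transfected gene could not be used to check the labels.

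The values are log2 ratios, where 1 unit is a 2-fold difference. Their direction is not stated. Transfected over untransfected is the likely reading, and every sign below rests on it. Ratios beyond 15 either way, which were dropped, were all positive on the Cy5 arrays and all negative on the Cy3 arrays, as they would be if the sign of 1 orientation had been turned. Across all genes tested the arrays correlated weakly, with Pearson's r from 0.123 to 0.202 between pairs of arrays. Below the first 6000 rows of the table the columns lined up only with an offset: arrays 2 to 4 had to be shifted against array 1 by 3 rows, and by 4 rows in the last part. Of 18 probes of the 10 genes, 17 lay in rows that could be placed, and 8 of these needed the offset. In the 500 rows to either side of each of the 17 probes, 15 showed their highest correlation between array 1 and the others at the offset used. The exceptions were 2 Egfr probes, where r was 0.03 and 0.017, and both were among the 8 that needed the offset. Around the others of those 8, r at the offset used was also low, from 0.075 to 0.136.

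None of the 10 genes passed the test. Limma's adjusted p (Benjamini-Hochberg over all 6327 genes) was under 0.05 for 0 of them, against 0% of all genes, and the smallest among the 10 was 0.432, for Gab1. At an unadjusted p under 0.05 there were also 0 of the 10, against 11.5% of all genes. Gab1 was the only one of them beyond 2-fold, on the lower side, where 7.7% of all genes lay; 0 lay beyond 2-fold on the higher side, against 3.87%. Nras alone was above 0 on all 4 arrays (9.58% of all genes) and Gab1 alone below 0 on all 4 (13%). The median of the 10 means was 0.22, against -0.082 for all genes, and 7 of the 10 means were above 0. The SD over arrays exceeded the size of the mean for all 10 genes, as it did for 77.2% of all genes.

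**Figure D1:**
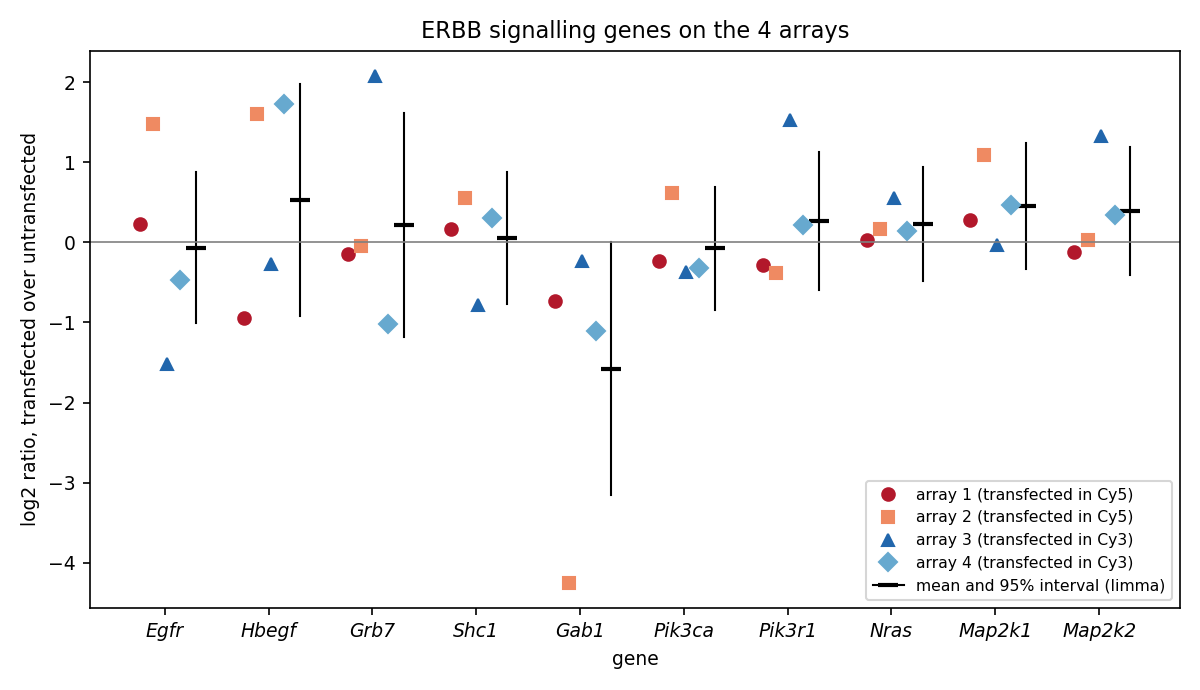
Log2 ratio (vertical axis, transfected over untransfected) of each of the 10 genes on each of the 4 arrays, coloured by the dye of the transfected sample, with the mean and limma's 95% interval over arrays beside the points. All intervals include 0. The Gab1 interval only just does so, and its array 2 value of -4.25 stands far below the other points.

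Egfr (Entrez Gene 13649) encodes the epidermal growth factor receptor, a partner of ERBB2. Its log2 ratio was 0.23 on array 1, 1.48 on array 2, -1.52 on array 3 and -0.47 on array 4. Both arrays with the transfected line in Cy5 were thus above 0 and both in Cy3 below. The mean was -0.067 ± 1.26 (SD, n = 4 arrays), with a 95% interval from -1.01 to 0.87 (limma, adjusted p = 0.951). With the dye term left out, the interval ran from -1.29 to 1.16. With the median of the probes in place of their mean, the value turned to 0.20.

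The 5 Egfr probes did not show a common value. Egfr probe 3, counted in table order, had -0.23, -1.68, -0.73 and -0.14 on arrays 1 to 4, all below 0. Egfr probe 5 had 1.08, 3.40, -1.71 and -2.24, a spread of over 5 log2 units between arrays of 1 RNA pair. Egfr probe 2 had 2.73 on array 2 and values below 0 on arrays 1 and 4, with no value on array 3. Egfr probe 4 had 0.16, -2.12 and -0.27 on arrays 1, 3 and 4, and Egfr probe 1 had a value on array 4 only (0.97). The gene's value on an array was hence an average over different probes from one array to the next. Probes 4 and 5 are those around which the row offset had least support.

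Hbegf (Entrez Gene 15200) encodes heparin-binding EGF-like growth factor, a ligand of EGFR and ERBB4. Its single probe had -0.95 on array 1, 1.61 on array 2, -0.26 on array 3 and 1.73 on array 4. The 2 arrays of each dye orientation lay on opposite sides of 0. The mean of 0.53 ± 1.34 (SD, n = 4 arrays) was the highest of the 10 genes, but its 95% interval ran from -0.91 to 1.98 (limma, adjusted p = 0.739). This gene could be read only with the row offset: in the rows as deposited, only array 1 had a value, and with an offset smaller by 1 row the mean was -0.83. Without array 2 the fitted mean, which weighs both dye orientations equally, was -0.11, and without array 1 the fitted mean was 1.17.

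Grb7 (Entrez Gene 14786) encodes an adaptor that binds phosphorylated ERBB2 and lies close to ERBB2 in the genome, so that both are often amplified together in human breast tumours. Its values were -0.14, -0.047, 2.08 and -1.02 on arrays 1 to 4. Array 3 alone was above 0, and it set the mean of 0.22 ± 1.31 (SD, n = 4 arrays; limma, adjusted p = 0.892). Without array 3 the fitted mean was -0.56, and without array 4 it was 0.99.

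Shc1 (Entrez Gene 20416) encodes an adaptor that, once phosphorylated, brings GRB2 and the RAS activator SOS to the receptor. It had 0.17, 0.56, -0.79 and 0.30 on arrays 1 to 4, with array 3 below 0 and the others above. The mean was 0.059 ± 0.59 (SD, n = 4 arrays), with a 95% interval from -0.77 to 0.89 (limma, adjusted p = 0.951). A further Shc1 probe lay in rows whose offset was unclear and was not used here.

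Gab1 (Entrez Gene 14388) encodes a docking protein that recruits PI3K and the phosphatase SHP2 to activated receptors. It was the gene furthest from 0, with -0.73 on array 1, -4.25 on array 2, -0.24 on array 3 and -1.11 on array 4. All arrays were below 0, and array 2 was more than 3 log2 units below the next lowest. The mean was -1.58 ± 1.81 (SD, n = 4 arrays), a level 2.99-fold lower, and lay at the 2.46 percentile of all genes. Its 95% interval ran from -3.16 to 0.0016 (limma, unadjusted p = 0.0502, adjusted p = 0.432). Without array 2 the fitted mean was -0.70 (limma, adjusted p = 0.944). Its single probe needed the row offset too, and with an offset 1 row smaller or larger the mean was -0.59 or -0.20.

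The PI3K enzyme joins a catalytic and a regulatory subunit. Pik3ca (Entrez Gene 18706), which encodes the alpha catalytic subunit, had -0.23, 0.62, -0.37 and -0.31 on arrays 1 to 4. Array 2 was the only one above 0. The mean was -0.072 ± 0.46 (SD, n = 4 arrays) and the 95% interval ran from -0.84 to 0.69 (limma, adjusted p = 0.94). Its 2 probes had means of -0.31 ± 0.63 and 0.16 ± 0.32, and on array 2 they read nearly alike, at 0.62 and 0.61.

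Pik3r1 (Entrez Gene 18708) encodes the main regulatory subunit, which holds the catalytic subunit in check until it binds phosphorylated tyrosines. It had -0.28, -0.38, 1.53 and 0.22 on arrays 1 to 4, below 0 with the transfected line in Cy5 and above 0 in Cy3. These values average 2 probes, of which only the first in table order had a value on all 4 arrays. That probe had -0.461, -0.379, 1.53 and -0.295, so it was below 0 on array 4. The second probe needed the row offset and had values on arrays 1 and 4 only (-0.097 and 0.726). The gene's mean was 0.27 ± 0.88 (SD, n = 4 arrays; limma, adjusted p = 0.768), and without array 3 the fitted mean was -0.057. The difference between the regulatory and the catalytic subunit gene was 0.34 ± 1.21, with Pik3r1 above Pik3ca on 2 of 4 arrays (exact sign permutation test over arrays, two-sided p = 0.75).

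Nras (Entrez Gene 18176) encodes a RAS GTPase, the switch that turns on the RAF kinases. Its values of 0.028, 0.17, 0.56 and 0.15 on arrays 1 to 4 had the smallest spread of the 10 genes. All were above 0, the first barely so. The mean was 0.23 ± 0.23 (SD, n = 4 arrays), a level 1.17-fold higher, and the 95% interval ran from -0.49 to 0.94 (limma, adjusted p = 0.768). After each array was centred on its median over all genes, the mean was 0.28, and without array 3 the uncentred fitted mean was 0.12.

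Map2k1 and Map2k2 (Entrez Gene 26395 and 26396) encode the closely related MEK kinases that phosphorylate ERK. Map2k1 had 0.28, 1.09, -0.026 and 0.47 on arrays 1 to 4, and its mean of 0.45 ± 0.47 (SD, n = 4 arrays) had a 95% interval from -0.33 to 1.24 (limma, adjusted p = 0.594). Array 3 was its only value below 0, and without array 2 the fitted mean was 0.25. Map2k2 had -0.12, 0.026, 1.33 and 0.34, with a mean of 0.39 ± 0.65 (SD, n = 4 arrays; limma, adjusted p = 0.648). Without array 3 its fitted mean was 0.15. Array 3 was thus the lowest array for one MEK gene and the highest for the other. The difference between both genes was 0.058 ± 1.02, with Map2k1 higher on 3 of 4 arrays (exact sign permutation test, two-sided p = 0.875). The 2 Map2k2 probes had means of 0.66 ± 0.74 and 0.13 ± 0.72, and array 3 was the highest array for each of them (1.68 and 0.97). Because the coding sequences of the MEK genes are similar, cDNA of one may bind the probe of the other, which was not tested.

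**Figure D2:**
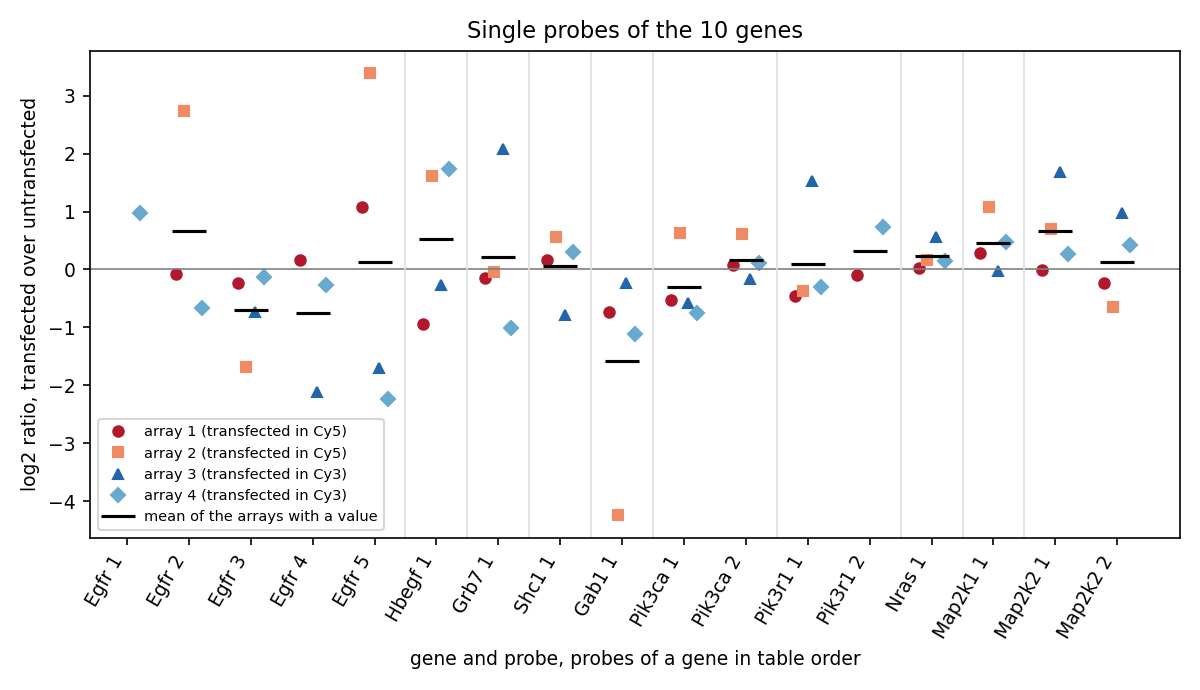
Log2 ratio (vertical axis) of each of the 17 probes of the 10 genes on each array with a value, with the mean of the arrays as a bar. The 5 Egfr probes lie on both sides of 0, whereas both Map2k2 probes are highest on array 3.

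The intervals show which differences these arrays could have resolved. The median width of the 95% interval over the 10 genes was 1.69 log2 units. For Shc1, Pik3ca and Nras the interval lay within 2-fold either way, which also held for 22.7% of all genes. For the other 7 genes a 2-fold difference in at least 1 direction was within the interval. The upper bound for Hbegf was 3.94-fold higher and the lower bound for Gab1 was 8.94-fold lower.

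In order of their means the genes ran Hbegf, Map2k1, Map2k2, Pik3r1, Nras, Grb7, Shc1, Egfr, Pik3ca and Gab1. From Hbegf to Pik3ca the differences between neighbours ranged from 0.0047 to 0.16 and were all smaller than their SDs over arrays. Sorting by mean puts like values side by side, so these gaps do not show whether the genes differ. The largest gap in that order was between Pik3ca and Gab1. Pik3ca was above Gab1 by 1.51 ± 2.27, on 3 of 4 arrays (exact sign permutation test, two-sided p = 0.25). With 4 arrays that test cannot give a p below 0.125. Hbegf was 2.11 ± 2.86 above Gab1, on 2 of 4 arrays.

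**Figure D3:**
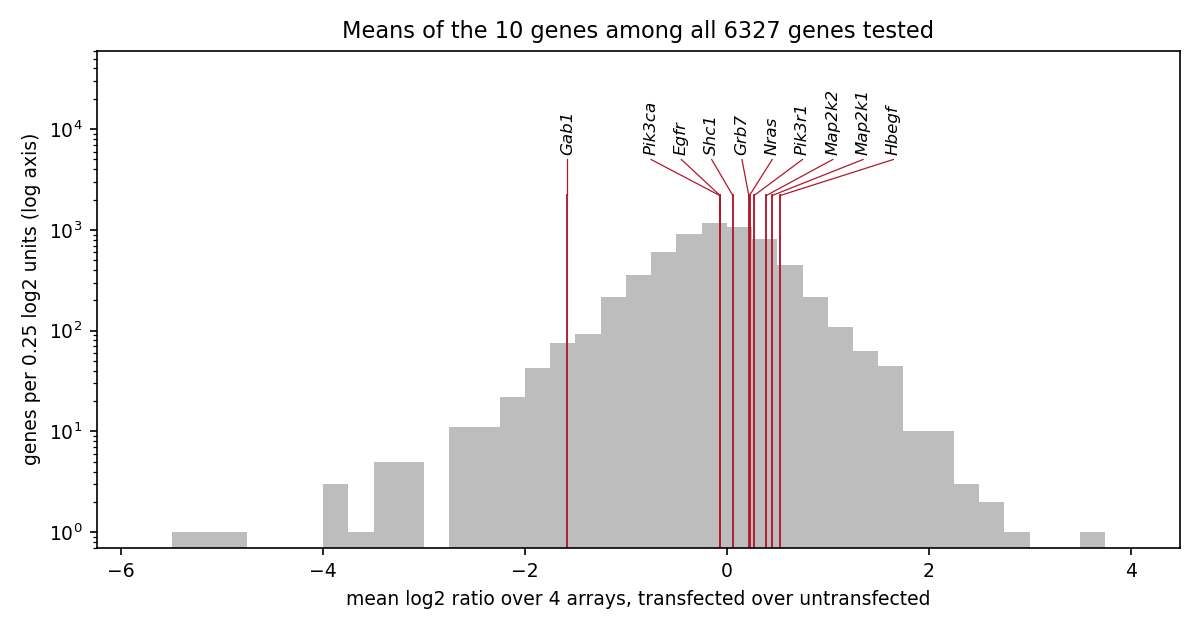
Histogram of the mean log2 ratio over 4 arrays (horizontal axis) of all 6327 genes tested, with the number of genes per bin on a log axis and the 10 genes marked by lines. Of the 10, 9 lie between -0.072 and 0.53 in the middle of the distribution, and Gab1 lies at -1.58 in its lower tail.

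Within the distribution of all genes, Pik3ca (50.8 percentile) and Egfr (51.2) were at the middle. Shc1 (60.5), Grb7 (70.6), Nras (71.2) and Pik3r1 (74.2) came next, and Map2k2 (81.1), Map2k1 (83.7) and Hbegf (86.7) were the highest. Centring each array on its median over all genes raised each mean by 0.056 and turned the sign of none of the 10.

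The dye of the transfected line is a term of the fit, and each orientation mean rests on 2 arrays. For 6 of the 10 genes (Egfr, Grb7, Shc1, Pik3ca, Pik3r1 and Map2k2) the means of both orientations had opposite signs, as for 43.3% of all genes. For 9 of them the difference between orientations was larger than the size of the mean, against 65.3% of all genes, Hbegf being the exception. These shares describe the arrays; whether the dye changed the ratio of any of the 10 genes was not tested. Egfr had 0.86 with the transfected line in Cy5 and -0.99 in Cy3. Pik3r1 differed the other way, with -0.33 in Cy5 and 0.87 in Cy3, though its probes were not the same on every array. Gab1 had -2.49 in Cy5 and -0.67 in Cy3.

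The arrays also differed in how far the 10 genes spread. On array 1, which had a value for 94.6% of the rows, all 10 genes lay within 1 log2 unit of 0 and their mean distance from 0 was 0.32. On arrays 2 and 3, with values for 81.0% and 76.8% of the rows, that distance was 1.02 and 0.87, and on array 4 (89.4%) it was 0.61. The median distance from 0 of the 10 genes was 0.23, 0.59, 0.67 and 0.40 on arrays 1 to 4. Over all genes tested the median distance was larger on each array, with 0.46 on array 1, 0.61 on array 2, 0.71 on array 3 and 0.52 on array 4. The median of the 10 genes was -0.13, 0.36, -0.13 and 0.18 on arrays 1 to 4, so no direction was shared by the arrays.

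A wider list of 113 genes of the same pathway, from receptors to AKT-mTOR targets, held the 10 genes and 103 others. Of the 113, 70 had a named probe and 45 had a value on all 4 arrays. Limma called 0 of these 45, and 6 had an unadjusted p under 0.05, namely Mras, Rasa1, Dok1, Akt1 and Lamtor3 with means above 0 and Crk below, none of them among the 10 genes. These 6 are 13.3% of the 45, near the 11.5% of all genes; over all genes 256 were higher and 474 lower at that level. The means of 23 were above 0 and of 22 below, with a median of 0.059. The 35 genes outside the 10 had a median of -0.15. By role, the median was -0.21 for 12 adaptors and docking proteins, -0.016 for 4 RAS GTPases, 0.061 for 4 RAS regulators, -0.15 for 7 PI3K subunits, 0.45 for 3 genes of the RAF-MEK-ERK kinases and scaffolds and 0.10 for 11 AKT-mTOR genes.

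Among the RAS genes, Mras, which encodes a RAS-related GTPase, had 1.73, 0.98, 0.79 and 0.90 on arrays 1 to 4. All were above 0, and its 3 probes were above 0 wherever they had a value. Its mean was 1.10 ± 0.43 (SD, n = 4 arrays; limma, unadjusted p = 0.0128, adjusted p = 0.369), a level 2.14-fold higher. Rasa1, which encodes a GTPase-activating protein that switches RAS off, had 0.92, 1.29, 0.91 and 0.81 on its single probe. Its mean of 0.98 ± 0.21 (limma, unadjusted p = 0.0156, adjusted p = 0.381) was close to 2-fold, with every array near it. Both genes needed the row offset: in the rows as deposited the means were 0.34 for Mras and 0.40 for Rasa1, and with an offset 1 row smaller that of Mras was 0.23. By contrast Rras2 had a mean of -0.59 ± 0.58 and Rras -0.26 ± 0.57, with mixed signs.

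Among adaptors, Dok1, a docking protein that dampens RAS signalling, had a mean of 0.71 ± 0.21 and was above 0 on all 4 arrays (limma, unadjusted p = 0.0495, adjusted p = 0.432). Crk, an adaptor that links receptors to RAP and RAC activation, had -1.04, -1.93, -0.38 and -1.78, with a mean of -1.29 ± 0.72 (limma, unadjusted p = 0.0172, adjusted p = 0.381). Like Gab1 it was below 0 on all 4 arrays, and with less spread. Grb2, the adaptor that carries SOS to the receptor, had -0.044, -0.30, -0.90 and -0.17, with a mean of -0.35 ± 0.38 (limma, adjusted p = 0.666). Grb10 had -0.78 ± 0.58. Irs1 was above 0 on all 4 arrays, with 0.175, 0.217, 0.184 and 0.404 and a mean of 0.245 ± 0.108 (limma, adjusted p = 0.747). Of the 12 adaptors and docking proteins, 2 were above 0 on all 4 arrays and 4 below, against 9.58% and 13% of all genes. Mras, Rasa1, Dok1, Akt1, Cbl and Rnf41 are named by a rule that takes the most extreme mean per role among genes of 1 sign on all 4 arrays, so their shared sign restates that rule. Crk, Grb2, Grb10, Irs1, Rras and Rras2 were named after their values were seen.

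Further along the pathway, Akt1, a kinase activated through PI3K, had 0.10, 0.56, 1.18 and 1.43 on its single probe, with a mean of 0.82 ± 0.60 (limma, unadjusted p = 0.0331, adjusted p = 0.412), and 0.30 with an offset 1 row smaller. The MEK scaffold gene Lamtor3 had -0.48, -0.28, 1.70 and 3.65, negative with the transfected line in Cy5 and positive in Cy3. Its mean of 1.15 ± 1.94 had a limma unadjusted p of 0.0354 and an adjusted p of 0.416. With the dye term left out, the limma adjusted p was 0.570. Pik3r3, a regulatory subunit gene, had the lowest mean of the list, -1.63 ± 2.37, set by -5.10 on array 2. Array 2 thus gave the lowest value for both Pik3r3 and Gab1. The single probe of each needed the row offset. That of Pik3r3 lay near Egfr probe 4, around which the offset had little support. Tsc2, an inhibitor of mTOR, had -1.33 ± 1.69 with mixed signs. Neither of its 2 probes had a value on all 4 arrays. Its array 2 value (-3.01) came from 1 probe, and its array 3 value (-2.52) from the other, which needed the row offset. Lamtor3, Pik3r3 and Tsc2 were likewise named after their values were seen.

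Of the genes that act on the receptor, Cbl, a ubiquitin ligase that sends EGFR for degradation, had 0.48, 0.024, 2.71 and 0.26, with a mean of 0.87 ± 1.24 (limma, adjusted p = 0.527). Rnf41, a ubiquitin ligase for ERBB3, had -0.35, -0.36, -2.58 and -0.65, with a mean of -0.99 ± 1.07 (limma, adjusted p = 0.444). Averaged over 3 probes, each had its furthest value on array 3, but the probes disagreed: 1 Cbl probe had -0.83, -1.07, 3.82 and -0.18, and single Rnf41 probes had 0.35 on array 4 and 0.53 on array 2. The Cbl probes, and the Rnf41 probes other than the first in table order, needed the row offset.

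**Figure D4:**
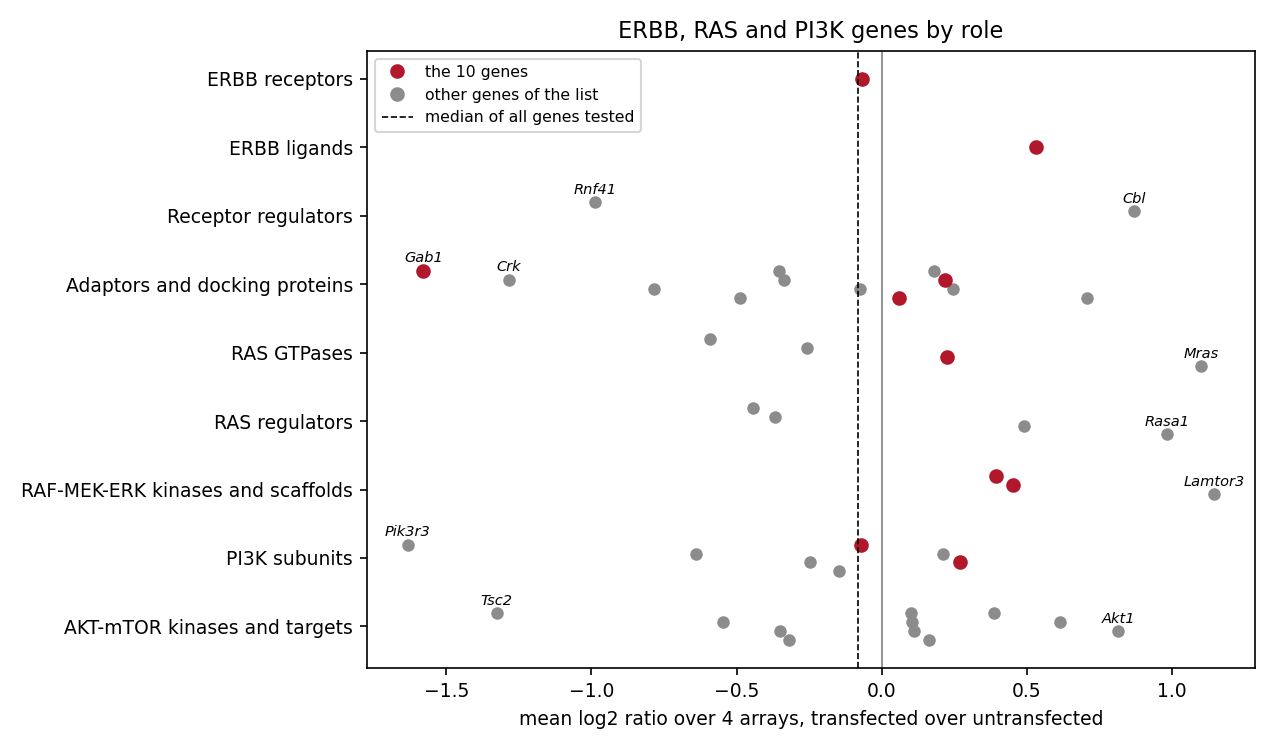
Mean log2 ratio over 4 arrays (horizontal axis) of the 45 measured genes of the wider list by role, with the 10 genes in red, genes at 0.8 or more from 0 named and the median of all genes as a dashed line. Each role with over 1 gene except the RAF-MEK-ERK group spans both sides of 0.

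Other ERBB receptors and ligands lacked a value on at least 1 array. Erbb3 was measured on array 1 only (-0.67). Egf, the ligand after which EGFR is named, had -1.14 on array 1 and -1.28 on array 3. Nrg4, a ligand of ERBB4, had 2.52 on array 1, 3.13 on array 2 and 0.011 on array 4. It was thus high on both arrays with the transfected line in Cy5 and near 0 on the 1 array in Cy3. Tested with the 8131 genes that had values on at least 3 arrays, its fitted mean was 1.42 (limma, unadjusted p = 0.0281, adjusted p = 0.484). Of the wider list's genes with values on 3 arrays, Rheb and Pebp1 also had an unadjusted p under 0.05 in that fit. Their fitted means were -1.49 (limma, unadjusted p = 0.0225) and 1.72 (limma, unadjusted p = 0.0252), each with mixed signs over arrays. Both were named after their values were seen. In all, 21 genes of the wider list had a value on 1 to 3 arrays and 1 had none.

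The file holds ratios and no levels, so whether a marker of a cell type was present could not be read. Of 12 fibroblast markers 7 were tested, with means from -4.91 (Col1a1) to 0.89 (Col3a1) and 0 called by limma (3 at an unadjusted p under 0.05, all lower, against 11.5% of all genes). Of these, Fn1 (-3.89) was called when the dye term was left out (limma, adjusted p = 0.0398). Of 44 markers of epithelial cells, leukocytes, endothelial cells, muscle, adipocytes and hepatocytes, 18 were tested and 0 called (3 at an unadjusted p under 0.05), with means from -1.17 (Lyz2) to 0.86 (Cldn3). Their part in the values of the 10 genes was not tested.

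**Figure D5:**
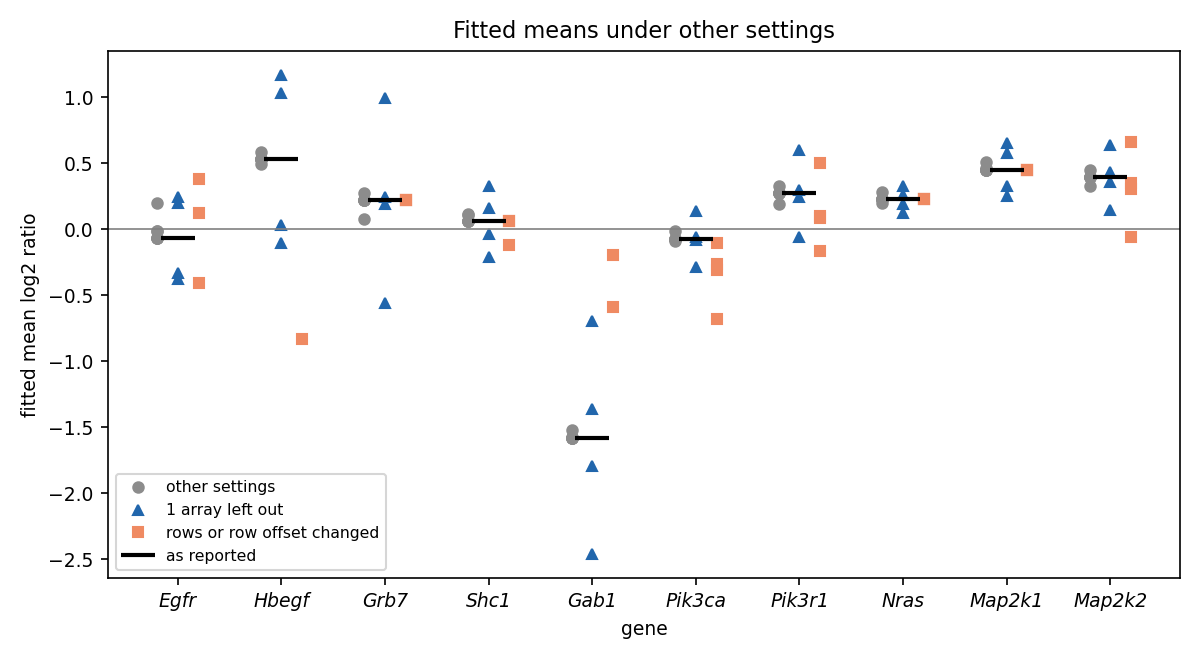
Fitted mean log2 ratio (vertical axis) of each of the 10 genes as reported (black bar), with 1 array left out (triangles), with other rows or row offsets (squares) and under the other settings (circles). Gab1, Nras and Map2k1 stay on 1 side of 0 in every setting shown, and Hbegf ranges from -0.83 to 1.17. For Nras and Map2k1 only centring, scaling and leaving out an array could change the mean. Gab1 and Nras had 1 sign on all 4 arrays, so scaling or leaving out an array could not turn theirs. The other offsets read Gab1 on arrays 2 to 4 from neighbouring rows.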

How the data were processed

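The authors deposited 1 table of log2 ratios, with a column per array. The labels' protocols do not state how images were read, corrected or normalized. The table has 20355 rows. Genes were named from the platform annotation (14030 probes with 1 symbol, of which 13994 matched a RefSeq gene table of assembly GRCm38.p6). Rows 1 to 6000 were used as they stand. Arrays 2 to 4 were read 3 rows higher for rows 8001 to 18000 and 4 rows higher from row 18301, and 2300 rows were left out. Values beyond 15 either way were dropped, and probes of a gene were averaged per array. Genes with a value on all 4 arrays were tested with limma 3.58.1 in R 4.3.3 (mean and dye terms, eBayes, two-sided, Benjamini-Hochberg). The number of arrays limits the precision. The 10 genes and all lists were chosen with earlier results of these data known. All 10 genes are named. Of the wider list, the genes named by rule are, per role, those with the highest and the lowest mean among genes of 1 sign on all 4 arrays.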

Additional observations from a re-analysis of the deposited data

Results flagged for a closer look

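Of 17 values checked (the 10 genes, their median and 6 further genes named by rule), 2 had 1 array far from the other 3; chance flags about 1 in 20. For Pik3ca, array 2 lay at 0.62 and the others between -0.37 and -0.23, a gap of 0.859 of the whole range. For Rnf41, array 3 lay at -2.58 and the others between -0.65 and -0.35, a gap of 0.865 of the range. The cause was not tested in either gene.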

How the results depend on the processing

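Limma called 0 of the 10 genes and 0 genes of the wider list under all 16 other settings, each changing 1 choice, and all were planned. Over all genes the count of 0 became 6 with every probe on its own, 6 when the dye term was left out (Fn1, Lox, Serpina12, Sparc, Fbln2 and Igfbp4), 3 with the median of the probes and 1 with arrays scaled to a common spread; without any 1 array it was 0. The cause was not tested. The median of the 10 genes stayed above 0, from 0.059 with an offset 1 row larger to 0.28 after centring. Gab1 was beyond 2-fold in the main setting, and the count of 1 became 0 with rows as deposited, in the first 6000 rows, and with an offset 1 row smaller or larger; without 1 array it was 0 to 2. Genes of 1 sign on all arrays numbered 1, not 2, with rows as deposited, in the first 6000 rows and with the larger offset, and 2 to 5 without 1 array. In the first 6000 rows Hbegf, Gab1 and Egfr had no value on all arrays, with rows as deposited Hbegf and Gab1 had none, and with the larger offset Hbegf had none. Of 144 fitted means of single genes under other settings, 15 turned sign. Many of the 144 could not change. The settings without the dye term, with robust variances, with values on at least 3 arrays and with values beyond 15 kept left every mean as it was. Other offsets could not move Grb7, Shc1, Nras or Map2k1, and the median of the probes could move only Egfr. With rows as deposited the means that turned sign were Egfr (0.12), Map2k2 (-0.062) and Shc1 (-0.12). With the smaller offset they were Egfr (0.38) and Hbegf (-0.83), with the larger one Pik3r1 (-0.17), and with the median of the probes Egfr (0.20). Leaving out 1 array gave ranges across 0 for Egfr (-0.38 to 0.24), Grb7 (-0.56 to 0.99), Hbegf (-0.11 to 1.17), Pik3ca (-0.28 to 0.14), Pik3r1 (-0.057 to 0.60) and Shc1 (-0.21 to 0.33). With every probe on its own there was no mean per gene.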
